A study of Mus musculus with 12 samples.

Results

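Nop16 and 5 other transcripts that encode nucleolar proteins (Ncl, Npm1, Npm3, Mybbp1a and Gnl3) were followed across the 4 groups of an RNA sequencing experiment in CH12F3-2A, a mouse B cell lymphoma line that can switch from IgM to IgA in culture. The 6 genes were taken by name from the table of 56941 Ensembl genes, and each matched 1 row (ENSMUSG00000025869 for Nop16, ENSMUSG00000026234 for Ncl, ENSMUSG00000057113 for Npm1, ENSMUSG00000056209 for Npm3, ENSMUSG00000040463 for Mybbp1a and ENSMUSG00000042354 for Gnl3). All cells were transfected with the Cas9 plasmid pX459 and selected with puromycin for 72 h. In sgNop16 cells the plasmid's guide targeted Nop16, and in sgCtr cells it was the control guide. The sgCtr and sgNop16 cells were left unstimulated or given CIT for 24 h, which combines IL-4 (20 ng/ml), TGF-β (1 ng/ml) and anti-CD40L (1 μg/ml). Each of the groups, sgCtr and sgNop16 without CIT and sgCtr and sgNop16 with CIT, had 3 libraries, which the series calls biological replicates. The study asks what NOP16 does in class switch recombination to IgA. Only 1 guide against Nop16 is described. The sources used here do not say where in Nop16 it cuts, or whether the cells were a mixed population or a clone.

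The nucleolus is where ribosomal RNA is transcribed, cut and folded with ribosomal proteins into precursor subunits. NOP16 is the mammalian counterpart of a yeast factor of early large subunit precursors. Nucleolin (Ncl) and nucleophosmin (Npm1) are RNA-binding and chaperone proteins that are among the most abundant of the nucleolus, NPM3 is a small relative of nucleophosmin, MYBBP1A is a nucleolar partner of transcription regulators including p53, and nucleostemin (Gnl3) is a nucleolar GTPase that is lost when cells stop dividing. Genes for such proteins are known targets of the transcription factor MYC, which drives ribosome production in activated B cells.

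Levels are given in CPM, the counts of a gene scaled to the same total in every library, after TMM normalisation. A gene is said to rise, fall or differ where edgeR's quasi-likelihood test gave an adjusted p under 0.05 over 16794 tested genes, among which were all 6. By mean level over the 12 libraries, Npm1 ranked 9 and Ncl 15 among the tested genes, while Mybbp1a ranked 118, Gnl3 381, Npm3 1809 and Nop16 3003. Per kb of coding sequence, Npm1 (3670 CPM per kb in unstimulated sgCtr cells) and Ncl (1330) were highest and Nop16 (199) was lowest, with Gnl3 at 279, Npm3 at 252 and Mybbp1a at 230. The order of these last 3 depended on the group and on whether coding or whole transcript length was used, whereas Npm1 stayed highest, Ncl next and Nop16 lowest in all 4 groups on both lengths.

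Library totals lay between 38866418 and 48615177 counts, and CPM replicates of the 6 genes had coefficients of variation between 0.36% and 4.9%. On principal components, 66.3% of the variance lay along the first, where stimulated and unstimulated libraries were apart, and 5.5% along the second, where the guides were. In CPM of the unadjusted library totals, the 8 B cell markers, all detected, summed to between 4220 and 4280 CPM in unstimulated sgCtr, 3950 and 3980 in unstimulated sgNop16, 4420 and 4510 in stimulated sgCtr and 4130 and 4210 CPM in stimulated sgNop16 cells, with the sgNop16 libraries below the sgCtr libraries of the same state. The largest part of this sum was Ighm (between 2100 and 2500 CPM), whose guide difference without CIT was -0.20 ± 0.02, while Blnk was higher (0.25 ± 0.04). With CIT the marker most lowered with the Nop16 guide was Ms4a1, at -0.54 ± 0.03 (adjusted p = 2.06e-10 by edgeR). Between the guides 1 of the 8 was called higher, 3 lower and 4 not without CIT (2.14% higher and 1.92% lower over all tested genes). With CIT 0 were called higher, 4 lower and 4 not (4.05% higher and 3.07% lower over all tested genes). The 7 markers of fibroblasts summed to between 1.40 and 5.23 CPM, with Col1a2, Pdgfra, Dcn and Lum at 0, and the 7 of erythroid cells to between 2.10 and 4.27 CPM. The 7 macrophage markers summed to between 7.61 and 8.77 CPM in unstimulated sgCtr, 9.45 and 10.8 in unstimulated sgNop16, 12 and 15.3 in stimulated sgCtr and 15.7 and 18.3 CPM in stimulated sgNop16 cells, with Cd68 (up to 9.33 CPM) and Csf1r (up to 8.64 CPM) the highest and Lyz2, Cd14 and Fcgr1 at 0. The 8 T cell markers summed to between 1.44 and 3.36 CPM with CIT and between 5.95 and 8.01 CPM without, with Cd247 the highest (up to 5.98 CPM), Cd3e at most 0.17 CPM and Trbc2 at 0. The part of these markers in the differences below was not tested. In such bulk samples, fewer cells of one kind and less RNA per cell cannot be told apart.

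The windows from 250 bases before to 50 bases after the start site were looked up for the genes in RefSeq on GRCm38.p6, an earlier build than the GRCm39 named for the counts, and 5 of the 6 matched (Nop16, Ncl, Npm3, Mybbp1a and Gnl3). The windows were searched on both strands for CACGTG, the E-box that MYC and MAX are known to bind, and for its variant CACGCG. These letters were chosen as genes for nucleolar proteins are known MYC targets, with the fall of the 6 genes with CIT already known. Of all 32851 windows of this length, 7.15% held CACGTG and 9.27% held CACGCG. The 2 windows with a match are shown 5′ to 3′ on the strand of the gene, with the matches in capitals. That of Nop16, the gene the guide targets, is chr13:54590025-54590324 on the minus strand, and that of Mybbp1a is chr11:72441077-72441376 on the plus strand.
Nop16: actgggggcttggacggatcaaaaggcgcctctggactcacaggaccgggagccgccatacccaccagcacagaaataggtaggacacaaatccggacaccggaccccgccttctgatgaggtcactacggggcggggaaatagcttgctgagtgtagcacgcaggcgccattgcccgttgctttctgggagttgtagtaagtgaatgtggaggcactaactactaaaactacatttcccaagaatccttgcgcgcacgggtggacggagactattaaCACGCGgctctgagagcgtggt
Mybbp1a: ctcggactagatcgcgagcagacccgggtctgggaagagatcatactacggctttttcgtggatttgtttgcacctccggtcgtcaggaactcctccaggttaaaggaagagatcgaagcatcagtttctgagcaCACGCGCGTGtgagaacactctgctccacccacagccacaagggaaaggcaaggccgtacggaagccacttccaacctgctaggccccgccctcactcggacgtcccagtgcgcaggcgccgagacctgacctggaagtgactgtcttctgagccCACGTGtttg
Counted from the start base as 0, the Nop16 match to CACGCG spans bases 28 to 33. The Mybbp1a window holds CACGTG at bases 40 to 45 and a pair of overlapping matches to the variant, 1 on each strand, from -115 to -106. The windows of Ncl, Npm3 and Gnl3 held neither set of letters. These matches are descriptions of letters and were not set against binding data. Bases outside the windows were not searched, and a part of MYC in the fall with CIT was not tested.

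Nop16, the target of the guide, fell with that guide in both states. Without CIT its level was 103.6, 108.0 and 107.3 CPM in the sgCtr libraries and 85.94, 82.43 and 88.61 CPM in the sgNop16 libraries. With CIT it was 78.81, 73.1 and 79.34 CPM in sgCtr and 64.66, 66.29 and 66.25 CPM in sgNop16 cells. In each state all 3 sgNop16 libraries were below the lowest sgCtr library, and the group means lay between 106.3 ± 2.35 CPM (SD, n = 3) in unstimulated sgCtr and 65.73 ± 0.93 CPM in stimulated sgNop16 cells. The fitted log2 differences between the guides were -0.31 ± 0.04 (SE, adjusted p = 0.000109 by edgeR) without CIT and -0.23 ± 0.04 (adjusted p = 0.00204) with CIT, which are falls by 19.4% and 14.7%. The level of an edited gene's mRNA does not measure the share of edited alleles. CIT lowered Nop16 by -0.46 ± 0.04 in sgCtr (adjusted p = 8.33e-09) and by -0.38 ± 0.04 in sgNop16 cells (adjusted p = 2.58e-07). The difference between these responses was 0.08 ± 0.06 on the log2 scale (adjusted p = 0.658) and was not called.

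Npm3, which encodes the small relative of nucleophosmin, went the other way with the Nop16 guide. Its level without CIT was 133.3, 131.4 and 132.4 CPM in sgCtr and 144.0, 146.9 and 147.5 CPM in sgNop16 cells. With CIT it was 110.4, 113.7 and 103.3 CPM in sgCtr and 136.7, 126.9 and 130.1 CPM in sgNop16 cells. All sgNop16 libraries lay above all sgCtr libraries of the same state, and the stimulated sgNop16 libraries lay around the level of unstimulated sgCtr cells. The guide difference was 0.14 ± 0.04 (adjusted p = 0.0397 by edgeR) without CIT and 0.27 ± 0.04 (adjusted p = 0.000118) with CIT. The call without CIT ended without any 1 of the 6 unstimulated libraries or sgNop16_CIT library 3 (adjusted p between 0.0517 and 0.114), with the difference between 0.14 and 0.16 in these fits, and with the replicate number as a block (adjusted p = 0.0527). CIT lowered Npm3 by -0.28 ± 0.04 in sgCtr and -0.16 ± 0.04 in sgNop16 cells, both called, the smallest fall among the 6 genes with either guide. The difference between these responses, 0.12 ± 0.06, was not called (adjusted p = 0.322).

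Npm1, which encodes the chaperone that moves ribosomal proteins and histones through the nucleolus, had the highest level of the 6. It was at 3237, 3181 and 3228 CPM in sgCtr and 3103, 2941 and 3204 CPM in sgNop16 cells without CIT, and at 2420, 2414 and 2431 CPM against 2499, 2576 and 2545 CPM with CIT. The guides overlapped without CIT, through sgNop16 library 3, while with CIT all sgNop16 libraries were above the sgCtr libraries. Its guide differences of -0.06 ± 0.02 (adjusted p = 0.169 by edgeR) without and 0.07 ± 0.02 (adjusted p = 0.0728) with CIT were not called. The call without CIT came when sgNop16_no library 3 was left out, where the difference was -0.09 ± 0.02 (adjusted p = 0.0295). The one with CIT was called by DESeq2 (adjusted p = 0.0321), in a fit of the stimulated libraries alone (0.0334), with counts divided by 4 (0.0475) and without sgNop16_no library 2 (0.0498). Npm2, the oocyte member of the family, had too few counts to be tested. CIT lowered Npm1 by -0.41 ± 0.02 in sgCtr and -0.28 ± 0.02 in sgNop16 cells.

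Ncl, which encodes the RNA-binding protein that acts in polymerase I transcription and early processing of ribosomal RNA, followed Npm1 closely. Its level without CIT was 2857, 2775 and 2822 CPM in sgCtr and 2694, 2659 and 2812 CPM in sgNop16 cells. With CIT it was 1977, 1964 and 1939 CPM in sgCtr and 2021, 2074 and 2029 CPM in sgNop16 cells. The guides overlapped without CIT and were apart with CIT, by a small margin in which sgNop16 was higher. The guide differences were -0.05 ± 0.02 (adjusted p = 0.222 by edgeR) without and 0.06 ± 0.02 (adjusted p = 0.0935) with CIT, neither of them called, although DESeq2 called the latter (adjusted p = 0.0424). CIT lowered Ncl by -0.52 ± 0.02 in sgCtr and -0.41 ± 0.02 in sgNop16 cells. Ncl shares annotated exons on its own strand with Gm24148, Snora75 and mmu-mir-3535 and holds Snord82 in an intron. The deposited counts of Snora75 and Snord82 were at most 10 in any library.

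Mybbp1a, whose product represses transcription partners and is released from the nucleolus when ribosome production is disturbed, did not differ detectably between guides before stimulation. It stood at 934.6, 934.4 and 913.8 CPM in sgCtr and 922.5, 919.8 and 901.7 CPM in sgNop16 cells (log2 difference -0.02 ± 0.02, adjusted p = 0.763 by edgeR). With CIT it was at 671.3, 675.3 and 675.6 CPM in sgCtr and 762.6, 752.7 and 747.5 CPM in sgNop16 cells. The stimulated groups were far apart for their spread, the SDs being 2.42 and 7.67 CPM, and the difference was 0.16 ± 0.02 (adjusted p = 2.24e-05). CIT thus lowered Mybbp1a by -0.46 ± 0.02 in sgCtr and by -0.28 ± 0.02 in sgNop16 cells.

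Gnl3, the nucleostemin gene, had the largest fall with CIT in sgCtr cells, of -0.58 ± 0.03 (adjusted p = 2.40e-13 by edgeR), and fell by -0.42 ± 0.03 in sgNop16 cells. Its level without CIT was 453.3, 444.6 and 452.3 CPM in sgCtr and 449.2, 424.2 and 459.8 CPM in sgNop16 cells. With CIT it was 305.8, 298.3 and 300.5 CPM in sgCtr and 331.9, 344.2 and 323.5 CPM in sgNop16 cells. The guides overlapped before stimulation and were apart after it. The guide difference was -0.02 ± 0.03 (adjusted p = 0.877) without CIT, where it turned to 0.02 when sgNop16_no library 2 was left out, and 0.14 ± 0.03 (adjusted p = 0.00403) with CIT. Its relatives Gnl1, Gnl2 and Gnl3l, which encode GTPases of the same family, were called in neither guide comparison. Over all tested genes 4.06% were called between the guides without CIT and 7.12% with CIT. With either guide all 4 genes of the family fell with CIT. Of all tested genes 21.1% were called lower in sgCtr and 18.5% in sgNop16 cells. In sgCtr cells the response was -0.26 ± 0.04 for Gnl2 and -0.23 ± 0.04 for Gnl3l. Gnl3 shares annotated exons with Snord19, Snord69 and Gm24916 on its own strand, each at 1 count in every library, and with Pbrm1 on the opposite strand, as Mybbp1a does with Spns2 and Npm3 with Gm15491. The sources used here do not say whether the counting used strand, or how it divided reads shared with near-identical copies such as the pseudogene Npm3-ps1.

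**Figure D1:**
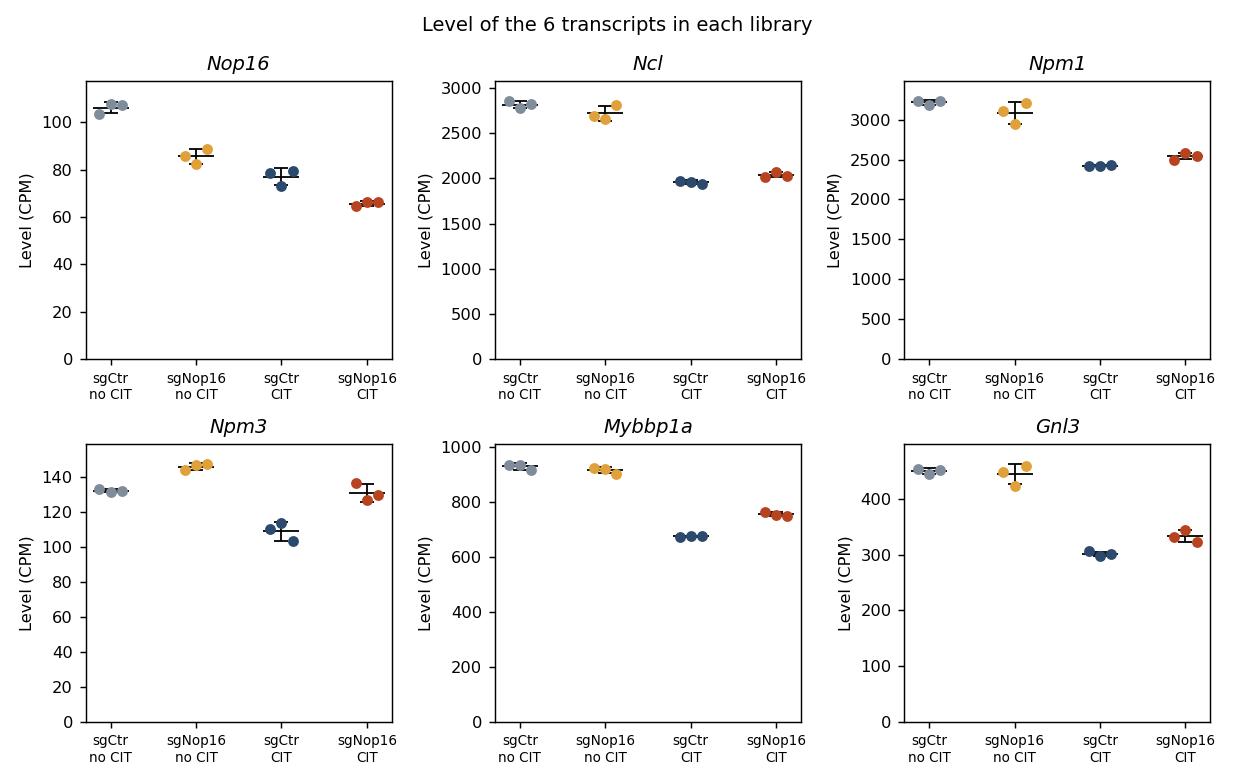
Level of the 6 transcripts in CPM (vertical axes from 0) in each library of the 4 groups. Points are libraries, horizontal marks are group means and bars are SDs over 3 libraries. All 6 are lower with CIT, while Nop16 is lower and Npm3 higher in sgNop16 than in sgCtr cells of the same state.

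CIT lowered all 6 transcripts with both guides, and in every one all stimulated libraries lay below all unstimulated libraries of the same guide. For sgCtr cells the count of 6 called lower stands beside 21.1% of all tested genes called lower, and the count of 6 without overlap beside 25.0% of tested genes lower without overlap. For sgNop16 cells these shares of all tested genes were 18.5% and 22.7%. The median log2 change of the 6 was -0.46 in sgCtr and -0.33 in sgNop16 cells, against 0.02 and 0.01 for all tested genes. In sgCtr cells the falls ran from Gnl3 and Ncl through Nop16 and Mybbp1a (-0.46 each) to Npm1 and Npm3. With a 1.2-fold minimum in place of any change, Npm3 was no longer called in sgCtr cells (adjusted p = 0.426) nor Npm1, Npm3 and Mybbp1a in sgNop16 cells (adjusted p at least 0.349).

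Without CIT 2 of the 6 transcripts differed between the guides, Nop16 lower and Npm3 higher. Over all tested genes 4.06% were called either way, 1.92% lower and 2.14% higher. The Nop16 call held in 21 of 22 alternative fits and the Npm3 call in 12 of 22. Nop16 and Npm3 were also the 2 whose libraries did not overlap, as in 18.8% of tested genes (9.40% lower and 9.44% higher). With CIT 4 of the 6 differed, against 7.12% of tested genes, with Nop16 lower (3.07% of tested genes) and Npm3, Mybbp1a and Gnl3 higher (4.05%). All 6 were without overlap between the guides with CIT, as were 24.1% of tested genes. Of the 6, 5 were higher (13.2% of tested genes) and Nop16 was lower (10.9%). The median of the 6 was -0.04 without and 0.11 with CIT, against 0.00 and 0.01 over all tested genes. None of the guide differences with CIT was called against a 1.2-fold minimum, nor were those without CIT. The comparisons share groups, the guide difference with CIT and the CIT response of sgNop16 cells having their stimulated libraries in common.

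**Figure D2:**
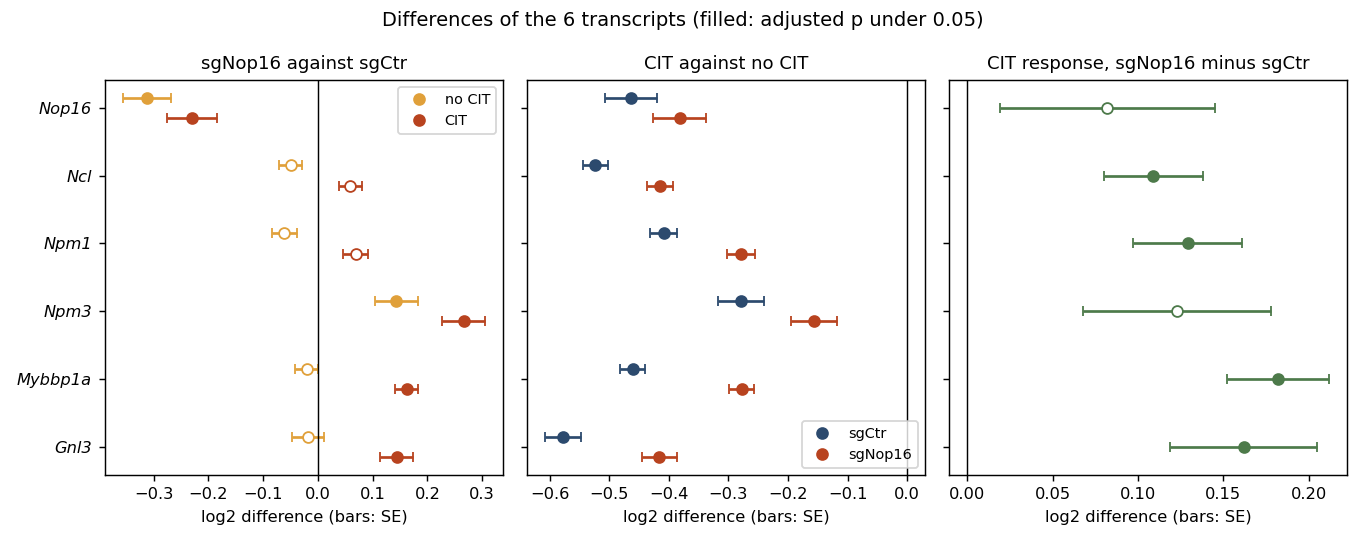
Fitted log2 differences of the 6 transcripts (horizontal axes, bars are SE) between guides in each state, between CIT and no CIT with each guide, and between the CIT responses. Filled points have an adjusted p under 0.05; Nop16 is the only one below 0 with the Nop16 guide and CIT, and all CIT responses are below 0.

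The CIT response itself differed between the guides for 4 of the 6, Ncl, Npm1, Mybbp1a and Gnl3, each falling less in sgNop16 than in sgCtr cells, when 2.83% of tested genes were called either way and 1.23% higher. The difference between the log2 responses was 0.18 ± 0.03 for Mybbp1a (adjusted p = 0.000928 by edgeR), 0.16 ± 0.04 for Gnl3 (adjusted p = 0.0417), 0.13 ± 0.03 for Npm1 (adjusted p = 0.0287) and 0.11 ± 0.03 for Ncl (adjusted p = 0.0436). The median of the 6 was 0.13, against 0.01 over all tested genes. The sign was the same in all 21 alternative fits for these 4. Mybbp1a kept its call in 20 of the 21, all but the 1.2-fold minimum. Npm1 kept it in 8, Gnl3 in 5 and Ncl in 4 of the 21. Leaving out any 1 library other than sgNop16_no library 3 ended at least 2 of the 4 calls. Without sgNop16_no library 2, the difference was 0.08 for Npm1 (adjusted p = 0.125), 0.12 for Gnl3 (adjusted p = 0.181) and 0.08 for Ncl (adjusted p = 0.212). That library was the lowest of its group for all 3 of these genes. With library totals in place of TMM, only Mybbp1a was called.

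Relative to each of the other 5 transcripts, Nop16 was lower in sgNop16 cells. As a share of the Npm3 level it was 80.3 ± 2.31% in sgCtr and 58.6 ± 2.17% in sgNop16 cells without CIT, and 70.8 ± 6.30% and 50.2 ± 2.57% with CIT (SD, n = 3). As a share of the Ncl level it was 3.77 ± 0.134% against 3.15 ± 0.045% without CIT and 3.93 ± 0.190% against 3.22 ± 0.039% with CIT. The mean log2 ratio difference over both states was -0.28 against Ncl, -0.27 against Npm1, -0.47 against Npm3, -0.34 against Mybbp1a and -0.33 against Gnl3. In an exact two-sided permutation test of the guide within states, p was 0.005 for each, the smallest that the 400 assignments allow (adjusted p = 0.00833 over 10 tests), and in both states every sgNop16 ratio was below every sgCtr ratio. These ratios do not depend on the scaling of libraries. The tests share the same Nop16 levels, which were themselves without overlap between the guides in both states, so they are not separate results.

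The same test of CIT within guides gave smaller shifts of the Nop16 ratio. It fell by 0.20 on the log2 scale against Npm3 (exact permutation p = 0.005, adjusted p = 0.00833) and by 0.08 against Npm1 (exact permutation p = 0.015, adjusted p = 0.0214), and rose by 0.07 against Gnl3 (exact permutation p = 0.02, adjusted p = 0.025). Against Ncl it changed by 0.05 (exact permutation p = 0.1, adjusted p = 0.111) and against Mybbp1a by -0.05 (exact permutation p = 0.165, adjusted p = 0.165), and neither change passed the test. These values are means over the guides. In sgCtr and sgNop16 cells in turn the shift was -0.185 and -0.225 against Npm3, -0.056 and -0.103 against Npm1, and 0.113 and 0.034 against Gnl3. It was 0.059 and 0.033 against Ncl, and -0.004 and -0.103 against Mybbp1a. Whether the shifts of these ratios differ between the guides was not tested.

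**Figure D3:**
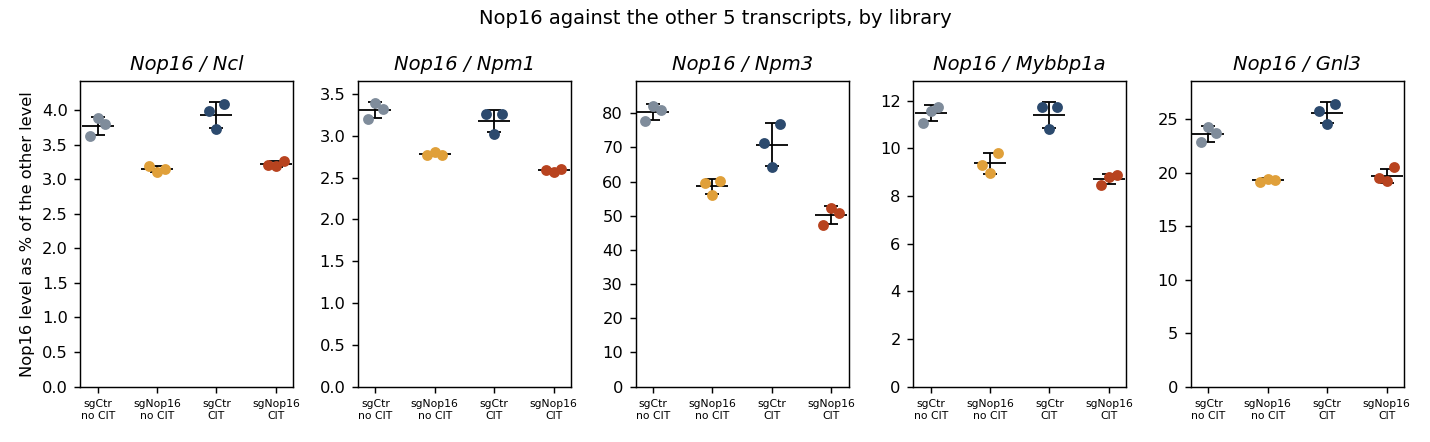
Nop16 level as a percentage of the level of each of the other 5 transcripts (vertical axes from 0) in each library of the 4 groups. Points are libraries, horizontal marks are means and bars are SDs over 3 libraries; in each state the sgNop16 libraries lie below the sgCtr libraries in all 5 panels.

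Other genes of ribosome production were set beside the 6, from lists of factors of large subunit assembly (51 tested), the small subunit processome (45), snoRNPs (16) and RNA polymerase I transcription (19). The 131 genes leave out the 6 themselves. Without CIT the Nop16 difference of -0.31 was below that of all 131, whose differences ran from -0.19 to 0.18, and only 5 genes of the other lists had a higher value than Npm3. With CIT Nop16 (-0.23) was again below all 131, which ran from -0.18 to 0.38, and 2 were above Npm3. Over all 16794 tested genes, 10.4% without and 16.6% with CIT had a lower guide difference than Nop16, and 76.4% and 86.1% a lower one than Npm3.

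Large subunit factors, among which NOP16 acts, had a median guide difference of -0.01 without CIT. By edgeR 0 of 51 were called (4.06% of all tested genes), 2 were higher and 5 lower at an unadjusted p under 0.05, and DESeq2 called 1 higher and 1 lower. With CIT 14 of 51 were higher and 1, Dhx9 (-0.11 ± 0.03), which encodes an RNA helicase with many other roles, was lower. Nop2, which encodes a methyltransferase of the large subunit RNA, was at 164 against 138 CPM (0.25 ± 0.04, adjusted p = 8.02e-05). The 4.05% of tested genes called higher with CIT is the background to these counts, and the list's median was 0.08 against 0.01 over all tested genes.

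Of 45 small subunit processome genes 3 were higher without CIT (2.14% of all tested genes), and 17 were higher with CIT (4.05% of all tested genes), with a median of 0.12. Rrp12 led in both states, at 128 against 113 CPM (0.18 ± 0.05) without and 98.4 against 75.6 CPM (0.38 ± 0.05, adjusted p = 1.64e-05) with CIT. Of 16 snoRNP genes 2 were lower without CIT (1.92% of all tested genes), led by Ruvbl1 (-0.19 ± 0.04), an ATPase gene of snoRNP assembly. With CIT 6 were higher (4.05% of all tested genes), led by Nop56 (437 against 384 CPM, 0.19 ± 0.03), a core protein of the particles that guide RNA methylation. Of 19 polymerase I genes edgeR called 0 without CIT (3 higher and 2 lower at an unadjusted p under 0.05, 1 and 1 by DESeq2), where 4.06% of all tested genes were called. With CIT 4 were higher and 2 lower (4.05% and 3.07% of all tested genes), with the subunit gene Polr1b at 0.29 ± 0.04 and Baz2a, a silencer of ribosomal RNA genes, at -0.15 ± 0.04. The symbols Polr1f, Polr1g and Polr1h were not matched in the annotation used here.

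Of the 131 genes, 112 fell with CIT in sgCtr and 109 in sgNop16 cells, when 21.1% and 18.5% of tested genes were called lower. With each guide 2 rose, when 20.6% and 19.3% of tested genes were called higher. Large subunit factors fell in 46 of 51 cases in sgCtr and 45 in sgNop16 cells, with medians of -0.37 and -0.27. Small subunit genes fell in 40 and 38 of 45 cases, snoRNP genes in 14 of 16 with either guide, and polymerase I genes in 12 of 19 with either guide, where 2 rose, led by Polr2e (0.16 ± 0.04 in sgCtr), a subunit gene that the polymerases share. Of the 131 genes 11 differed in their CIT response between the guides, all with a higher log2 response in sgNop16 cells (2.83% of tested genes were called either way and 1.23% higher), 7 of them large subunit factors, 3 snoRNP genes and 1, Ddx21, a nucleolar helicase gene (0.15 ± 0.04). Of the small subunit genes edgeR called 0 for this difference, with 9 higher and 0 lower at an unadjusted p under 0.05 and 2 higher by DESeq2. The median over the 131 was 0.09, and 108 of them had a lower value than Gnl3 and 115 a lower value than Mybbp1a.

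**Figure D4:**
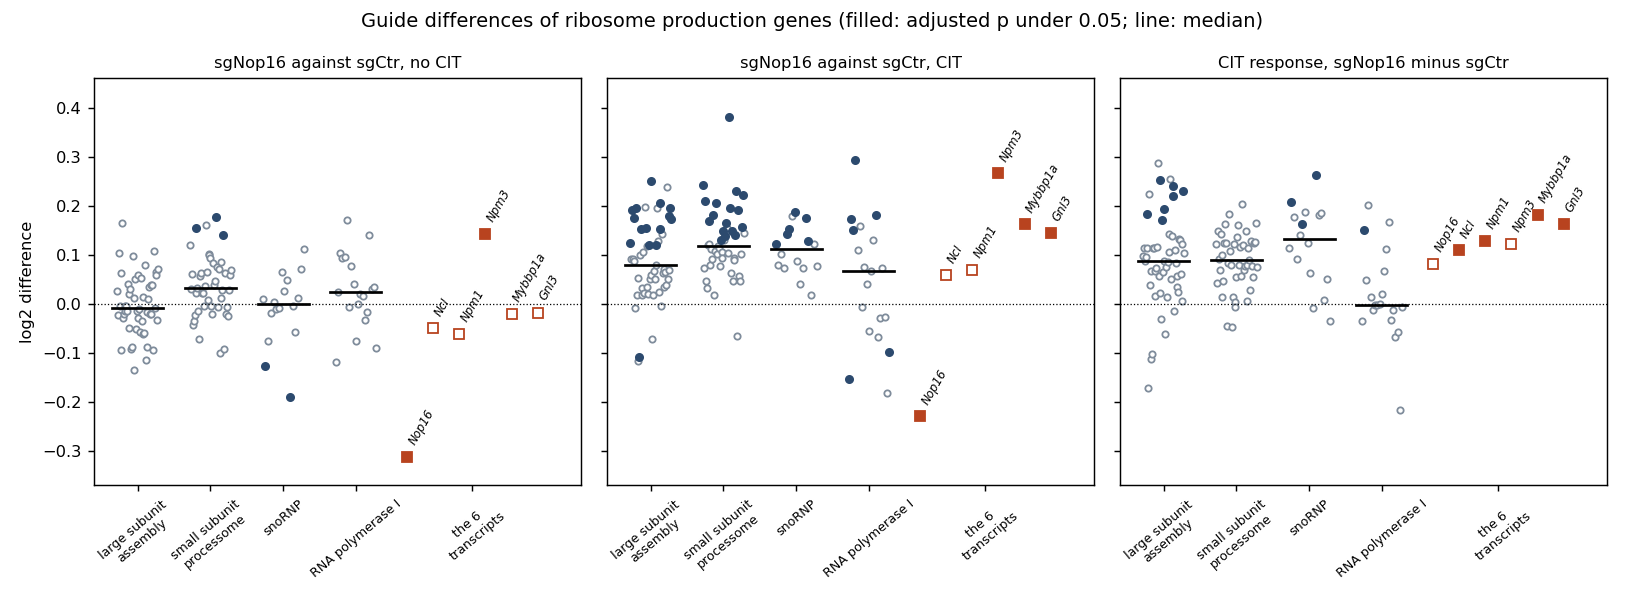
Fitted log2 differences (vertical axis) between guides without and with CIT and between the CIT responses, for 4 lists of ribosome production genes (points, with each list's median as a line) and the 6 transcripts (squares). Filled symbols have an adjusted p under 0.05; Nop16 is the lowest symbol in both guide comparisons.

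Regulators that are known to act on or through these proteins were followed next. Myc, the transcription factor gene, was at 455 ± 6.49 CPM in sgCtr and 463 ± 4.24 CPM in sgNop16 cells without CIT, and at 197 ± 7.43 and 245 ± 5.95 CPM with CIT. It fell by -1.20 ± 0.03 in sgCtr and -0.92 ± 0.03 in sgNop16 cells, and the difference between these responses was 0.29 ± 0.04 (adjusted p = 0.000286 by edgeR). Without CIT edgeR and DESeq2 called 0 of 11 genes of the MYC network between the guides (1 lower at an unadjusted p under 0.05), when edgeR called 4.06% of tested genes. With CIT, when 7.12% of tested genes were called, 1 of the 11, Myc, was higher (0.31 ± 0.03) and 1, Mxd4, a gene for a MAX partner that opposes MYC, was lower (-0.34 ± 0.06). Mycl, a MYC relative, rose with CIT from 0.906 to 9.51 CPM in sgCtr cells.

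A list of p53 itself, its target Cdkn1a and genes that link p53 to nucleolar proteins had 8 tested genes. Of these, 2 were higher in sgNop16 cells with CIT, when 4.05% of tested genes were called higher. These were Trp53 itself, at 279 ± 8.04 against 240 ± 8.82 CPM (0.22 ± 0.03, adjusted p = 0.000119 by edgeR), and its target Cdkn1a, a cell cycle inhibitor gene, at 19.2 ± 1.28 against 11.6 ± 1.36 CPM (0.73 ± 0.12, adjusted p = 0.000256). Without CIT 1 of the 8 was called, when 4.06% of tested genes were, namely Mdm4, a p53 inhibitor gene, at 169 against 198 CPM (-0.22 ± 0.04). Mdm2, which encodes the p53 ubiquitin ligase that nucleostemin and nucleophosmin are known to bind, was called in neither state (-0.08 ± 0.06 and 0.06 ± 0.06). The ribosomal protein genes of the list, Rpl5 (-0.07 ± 0.03), Rpl11 (0.02 ± 0.02) and Rpl23 (-0.02 ± 0.03), were not called with CIT. Cdkn2a had too few counts to be tested.

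Over the 12 libraries Pearson's r of log2 CPM was 0.993 between Ncl and Npm1, and between 0.964 and 0.990 for the other pairs among Ncl, Npm1, Mybbp1a and Gnl3. Nop16 had r between 0.709 (Mybbp1a) and 0.83 (Ncl) with these 4, and Npm3 between 0.707 (Npm1) and 0.827 (Mybbp1a), while r between Nop16 and Npm3 was 0.226. These values rest largely on the differences between groups, and the libraries share their scaling. For deviations from the group means the picture differed. There r was between 0.81 and 0.83 among Ncl, Npm1 and Gnl3, and between -0.56 and -0.307 for Mybbp1a with these 3. For Nop16 it was 0.583 with Npm1, 0.508 with Gnl3, 0.304 with Ncl, -0.481 with Mybbp1a and -0.582 with Npm3. The values of r for deviations rest on 12 libraries less the means of their 4 groups and were not tested.

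Of the 12226 genes searched, those tested that have a symbol other than a gene model name, the ones most like Nop16 over the 12 libraries were Glcci1 (r = 0.977), Tram2 (0.975) and Cmtm8 (0.974), with fitted guide differences between -0.45 and -0.19 and CIT responses between -0.77 and -0.37. Among those most like Npm3 were Pex14 (0.978) and Nadk (0.960). Ncl was most like Hsp90aa1 (0.998), Set and Aldoa, Npm1 like Hspd1 (0.996), Mipep and Hsp90aa1, Mybbp1a like Ank3 (0.995), Srm and Bcat1, and Gnl3 like Pa2g4 (0.994), Ddx21 and Nolc1. With Spearman's rho, or with r of the deviations from group means, 0 of the 3 closest genes of each of the 6 remained among its closest 3.

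The expressed genes that neighbour Nop16 on GRCm38, a choice made after the data were seen, were Higd2a and Arl10. Higd2a had 35.3 CPM in sgNop16 and 39.8 CPM in sgCtr cells without CIT (-0.17 ± 0.07, adjusted p = 0.186 by edgeR) and 31.2 and 31.8 CPM with CIT (-0.03 ± 0.07, adjusted p = 0.903). Arl10 had 13 and 14.1 CPM without CIT (-0.12 ± 0.10, adjusted p = 0.702) and 14.0 and 13.8 CPM with CIT (0.02 ± 0.10, adjusted p = 0.949). Neither neighbour was called between the guides, at SEs larger than that of Nop16.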

How the data were processed

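The authors deposited 1 table of estimated counts per Ensembl gene, whole numbers not scaled to library size. The submitters' processing notes list HISAT2 2.2.1, StringTie 2.2.1 and GRCm39 but not their roles, and libraries were made from total RNA with a directional kit, per the labels' protocols. The sources used here do not give the strand setting or the annotation release. Values were in excess at 4 (8845, against 4025 at 5), so 1 fragment may be worth about 4 counts. Columns named Cont and KD were read as sgCtr and sgNop16, and stim as CIT. Symbols came from GENCODE M21 (GRCm38) for 51948 genes.

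Counts were filtered with filterByExpr and tested with edgeR 4.0.16 (R 4.3.3) by its quasi-likelihood test with TMM factors (0.985 to 1.013) and robust estimates of the spread (a setting taken up after earlier results were known), over all 12 libraries with 1 mean per group, and adjusted by Benjamini-Hochberg over 16794 genes. Alternatives included DESeq2 1.42.0. The p-values by edgeR rest on the spread between libraries within groups, estimated for each gene over all 4 groups together and moderated across genes. Libraries were not paired by replicate number in the main fit, as the labels do not say whether the numbers mark a shared day.

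The members and lists were chosen with earlier results of these data known. Named genes were drawn from the 6, Myc, the called gene of each list with the largest change each way per contrast, and the 3 genes with the highest r for each of the 6, of which 1 is not reported here. Others were named after their values were seen: the relatives Gnl1, Gnl2, Gnl3l and Npm2, Trp53 with CIT, Mdm2, Rpl5, Rpl11, Rpl23, and both neighbours. The fit was tested on simulated data for the guide difference without CIT only, with the same set spread for every gene. The other comparisons were not tested in this way. Lengths are those of the principal transcript in GENCODE M21.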

Additional observations from a re-analysis of the deposited data

Results flagged for a closer look

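The CIT response differed between the guides, by a test of the difference itself (edgeR's quasi-likelihood test, contrast of the 2 responses), for 4 of the 6 transcripts, all with a smaller fall in sgNop16 cells. The differences of log2 responses were 0.182 for Mybbp1a, 0.162 for Gnl3, 0.129 for Npm1 and 0.109 for Ncl. Over all tested genes 2.83% were called either way and 1.23% higher. Of 21 alternative fits, Mybbp1a kept its call in 20, Npm1 in 8, Gnl3 in 5 and Ncl in 4.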

How the results depend on the processing

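The number of the 6 transcripts called was 2 for the guide difference without CIT, 4 with CIT, 6 for each CIT response and 4 for the difference between responses. With a 1.2-fold minimum these were 0, 0, 5 (sgCtr), 3 (sgNop16) and 0. Without CIT the guide difference gave 1 call with the replicate number as a block and 1 without robust estimates of the spread, a setting added after the data were seen, and 1 to 2 with a library left out. The difference between responses gave 2 calls with RLE size factors, 1 with library totals, 2 without a low-count filter, 2 with the replicate block, 1 without robust estimates, and 1 to 4 with a library left out. The counts for the other settings were within 1.5 times. Over all fits of single transcripts 1 changed sign, Gnl3 without CIT when sgNop16_no library 2 was left out (0.018, adjusted p = 0.902), with a range from -0.041 to 0.018 when a library was left out. The cause of these changes was not tested. Same-numbered libraries of different groups had correlations of deviations between -0.083 and 0.06 over 18 pairs, 0 of them over 0.1. The labels do not say what the number marks, and these correlations cannot exclude a weak shared effect. Over all genes the 1.2-fold minimum left 48 of 682 calls between guides without CIT, 68 of 1195 with CIT, 3406 of 7007 and 2772 of 6343 for the CIT responses and 13 of 475 for their difference. DESeq2 called 767 for that difference. Leaving out sgNop16_CIT library 2 left 777 guide calls with CIT and 306 for the difference, and leaving out sgNop16_no library 1 left 305. Library totals gave 446 higher and 233 lower guide calls without CIT (360 and 322 with TMM) and 138 and 327 for the difference (207 and 268). Nop16 had the fewest counts of the 6, 44081 over the 12 libraries, and a fragment may be worth about 4 of them. The shares of counting and of library differences in the errors were not separated.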
